A study of Homo sapiens with 6 samples.

Results

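Ribosome biogenesis and nucleolar genes were compared between human endothelial cells depleted of the lysine methyltransferase SETD7 (also called Set7) and their controls. The set is a fixed list of 47 gene symbols, and all 47 were found by name among the 18544 genes of the count table. The list was proposed with earlier results of these data in view. By role the list holds 7 RNA polymerase I genes, 8 genes of small nucleolar ribonucleoproteins (snoRNPs), 12 small-subunit processing genes, 14 large-subunit assembly genes, 5 multifunctional nucleolar proteins and ODC1, the polyamine enzyme.

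Polyadenylated RNA was sequenced from HMEC-1, an established line of human microvascular endothelial cells, grown at 5.5 mM glucose. In the Set7KD group (n = 3 libraries) a lentivirus delivered an shRNA targeting Set7, and in the NTC group (n = 3 libraries) a lentivirus delivered a non-targeting shRNA. Both groups therefore carried lentiviral vector and shRNA, and all libraries came from this 1 line. The design text calls the libraries biological triplicates, but separate transductions, and the number of shRNA sequences used, are not given in the sources used here. The p-values below therefore cover only the spread between these libraries, which may be technical.

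Ribosomes are built mainly in the nucleolus. RNA polymerase I transcribes a long precursor rRNA there. Box C/D and box H/ACA snoRNPs guide ribose methylation and pseudouridylation of it, the small-subunit processome folds and cleaves it, and separate sets of helicases, GTPases and scaffold proteins complete the large and small subunits. Polyamines, which begin with the ornithine decarboxylase ODC1, bind RNA and are needed in bulk by growing cells, and ODC1 and many ribosome biogenesis genes are textbook targets of the transcription factor MYC.

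Each library held between 16385878 and 16953331 counts in genes, and 18482 genes passed the filter on low counts. SETD7 had 27.8, 43.8 and 26.7 CPM in the Set7KD libraries, against 180.5, 178 and 176 CPM in the NTC libraries (CPM is a count per unit of library size, with library sizes scaled by TMM factors). The groups did not overlap, and Set7KD replicate 2 kept the most SETD7 mRNA (log2 fold change -2.44 ± 0.21 SE, edgeR quasi-likelihood test, Benjamini-Hochberg adjusted p = 0.000927). Of 6 endothelial markers tested, 3 fell by edgeR (CDH5, TIE1 and ROBO4), also at an unadjusted p under 0.05, and DESeq2 gave 3 lower calls as well. By edgeR, DESeq2 or limma-voom 0 rose, also at an unadjusted p under 0.05. By limma-voom, and with the replicate number as a block, 4 fell, the added gene in the block being ERG (log2 fold change -0.38, adjusted p = 0.000178). VWF and ESAM had positive log2 fold changes, 0.06 and 0.27, and did not pass (edgeR adjusted p = 0.782 and 0.543). ESAM was near the floor, with means of 1.28 CPM in Set7KD and 1.07 CPM in NTC. The summed level of the markers was 281.9 to 321.6 CPM in Set7KD and 414.7 to 536.9 CPM in NTC libraries. PECAM1 was not analysed here. Of 5 fibroblast markers tested, 4 rose (COL1A1, COL1A2, COL3A1 and PDGFRA), with sums of 3113 to 4053 CPM in Set7KD and 1445 to 1989 CPM in NTC libraries. Of 6 leukocyte and epithelial markers only EPCAM was in the table, and it did not pass the filter. Of 6 growth and proliferation markers, CCNE1 and CCNE2 rose. MKI67, with a log2 fold change of 0.08, and PCNA, with 0.11, did not pass the test (PCNA did with the block, adjusted p = 0.039). CCND1 and TOP2A, with -0.20 and -0.05, did not pass either, and 1 marker was called lower without NTC replicate 2. The part of cell identity or growth rate in the results was not tested, and in bulk RNA fewer cells of a type and less RNA per cell cannot be told apart.

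Most of the listed genes were higher after SETD7 knockdown, by small amounts. Of the 47 members, 34 rose and 0 fell at an edgeR adjusted p under 0.05, and 13 did not pass. No member fell by DESeq2, by limma-voom or at an unadjusted p under 0.05 either. Across all tested genes 36.2% were called, 17.6% higher and 18.6% lower, so the members called higher made up 72.3% of the list against a background of 17.6%. Their median log2 fold change was 0.25, whereas the median over all tested genes was -0.01. The list was proposed with earlier results of these data in view, so these figures describe it and no test was made over it. The 34 calls ranged from 1.1-fold for FTSJ3 to 1.69-fold for ODC1, with a median of 1.24-fold. Of them, 20 reached 1.2-fold, 12 reached 1.3-fold and only 2, ODC1 and RRS1, reached 1.5-fold. BOP1 came next, at 1.49-fold.

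The separation between libraries was as regular as the fold changes were small. In 38 members every Set7KD library lay above every NTC library, against 23.3% of all tested genes; the opposite arrangement, seen in 24.1% of all genes, occurred in 0 members. Within replicate numbers, 40 members were higher in Set7KD at all 3 numbers, against 31.3% of all genes. Together the members took up 0.578, 0.5997 and 0.578% of gene counts in the Set7KD libraries, against 0.5011, 0.5057 and 0.4901% in the NTC libraries. In the same libraries 79 rows were picked as ribosomal-protein genes by symbol alone, as RPL or RPS followed by a number. That pattern leaves out the RPLP genes and RPSA. These rows had every Set7KD share below every NTC share. They took up 1.32, 1.38 and 1.32% of gene counts in Set7KD, against 1.658, 1.656 and 1.604% in NTC. Shares of 1 total do not vary independently of each other.

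**Figure D1:**
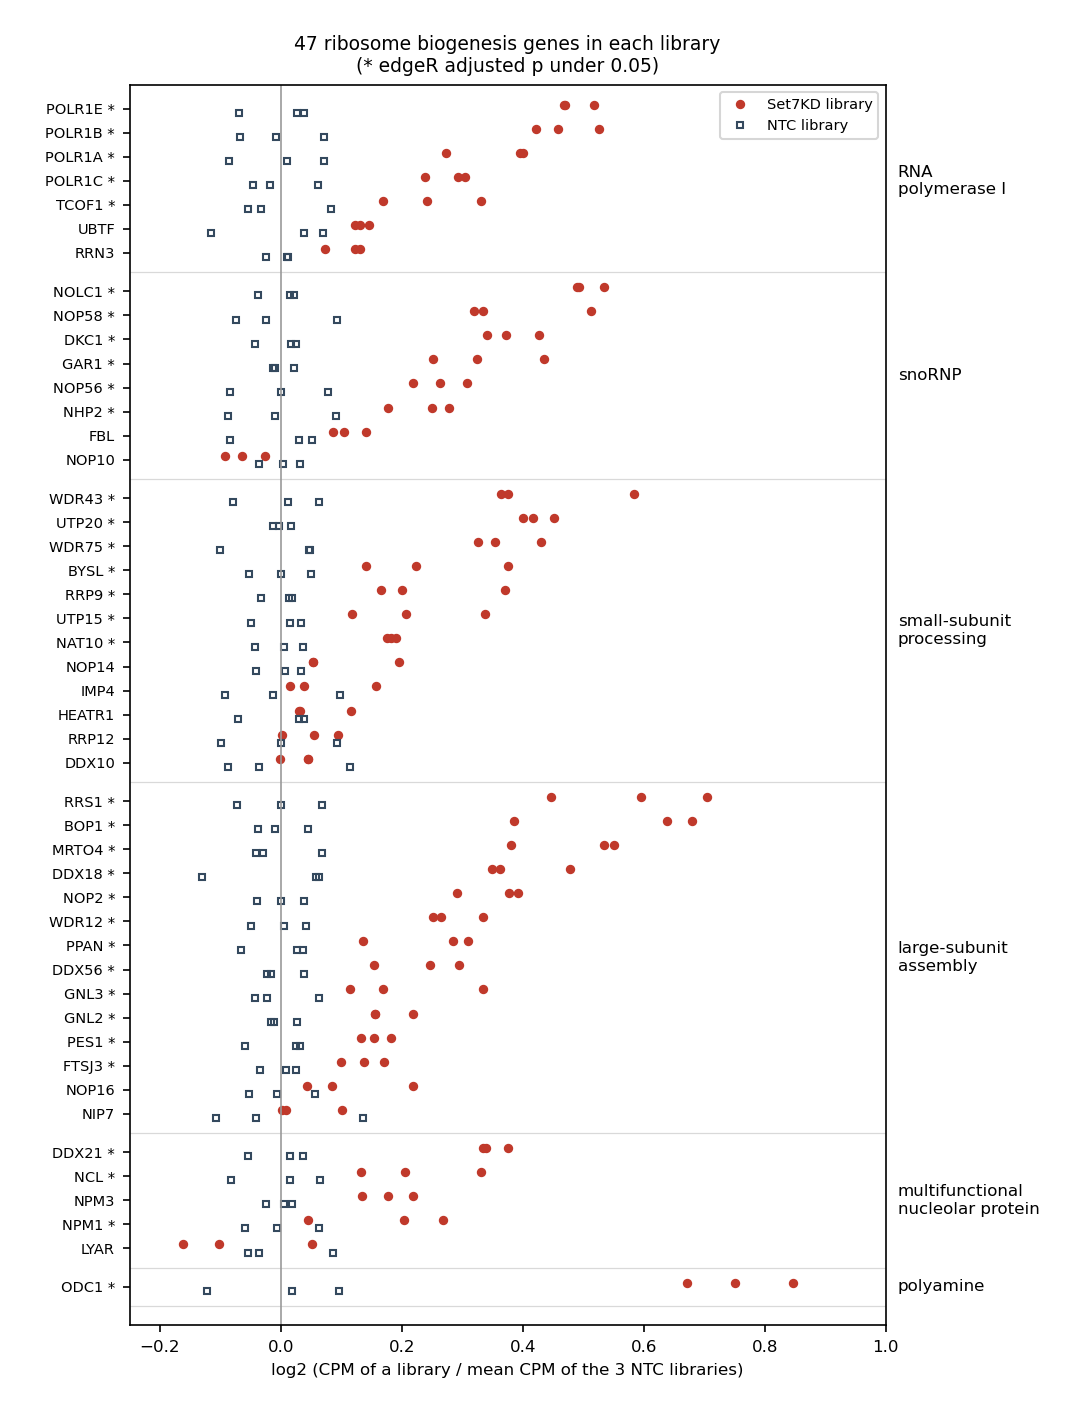
Log2 ratio of the CPM of each library to the mean CPM of the 3 NTC libraries, for all 47 members grouped by role; filled red circles are Set7KD libraries, open squares are NTC libraries, and asterisks mark edgeR adjusted p under 0.05. The Set7KD points lie to the right of all NTC points in 38 members, and ODC1 stands farthest to the right.

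Sequence at the annotated starts of some of these genes held a motif that was not itself used to choose the list. Many ribosome biogenesis genes are textbook MYC targets, as stated above, so the shares below describe the kind of genes listed and were not tested. RefSeq promoter windows (GRCh38.p14, 250 bases before to 50 bases after each annotated start) were available for 39 members, with 50 windows in all. The palindrome CACGTG, called an E-box and bound by MYC with MAX and by several other helix-loop-helix factors, occurred in 18 of the 39 (46.2%). It occurred in 1220 of 9893 tested genes with a window (12.3%) and in 2396 of all 27305 genes with a window (8.77%), and being its own reverse complement it reads alike on both strands. These 18 genes held 21 sites, of which 18 (85.7%) began between 50 bases before and 50 bases after the start. Of the 2821 sites in all windows, 36.9% fell in that range. CCGGAAGT, the core of sites bound by ETS-family factors, searched on both strands, occurred in 20.5% of members, 9.55% of tested genes and 4.95% of all genes. TATAAA, on both strands, occurred in 2.56% of members, 8.55% of tested genes and 14% of all genes. The motifs were searched separately, so matches of different motifs may overlap. Genes with several windows counted once when any window matched, and shares were not adjusted for base composition.

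Some of the 21 sites are shown in 30-base windows, written on the strand of the gene with the E-box in capitals. They are given because the motif and its place recur across roles: 10 members that rose come before FBL, NOP10 and LYAR, which did not pass the test. Sites not printed are those of BYSL, NOP2 and PES1, which rose, those of NOP14 and IMP4, which did not pass, and the NOP10 site at -170. The number after each gene is the position of the first base of the E-box from the annotated start, where negative values lie before it.
ODC1, -29 (GRCh38.p14, chr2:10448024-10448053, minus strand): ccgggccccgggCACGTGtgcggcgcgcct
ODC1, 6 (GRCh38.p14, chr2:10447990-10448019, minus strand): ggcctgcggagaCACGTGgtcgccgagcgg
WDR43, 4 (GRCh38.p14, chr2:28894658-28894687, plus strand): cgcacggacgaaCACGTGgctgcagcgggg
UTP20, -10 (GRCh38.p14, chr12:101280083-101280112, plus strand): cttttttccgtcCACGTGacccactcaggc
NAT10, -15 (GRCh38.p14, chr11:34105602-34105631, plus strand): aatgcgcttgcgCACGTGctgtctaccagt
RRP9, -5 (GRCh38.p14, chr3:51941892-51941921, minus strand): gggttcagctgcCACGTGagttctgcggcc
MRTO4, 15 (GRCh38.p14, chr1:19251807-19251836, plus strand): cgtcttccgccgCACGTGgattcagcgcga
GNL3, 7 (GRCh38.p14, chr3:52686026-52686055, plus strand): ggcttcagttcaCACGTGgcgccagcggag
GNL2, 4 (GRCh38.p14, chr1:37595917-37595946, minus strand): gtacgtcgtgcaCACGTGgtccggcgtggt
DDX21, -31 (GRCh38.p14, chr10:68956604-68956633, plus strand): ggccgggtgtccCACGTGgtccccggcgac
GAR1, 32 (GRCh38.p14, chr4:109815781-109815810, plus strand): gggccagaggggCACGTGgcgccggtgagt
FBL, 7 (GRCh38.p14, chr19:39846356-39846385, minus strand): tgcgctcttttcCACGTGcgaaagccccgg
NOP10, -11 (GRCh38.p14, chr15:34343130-34343159, minus strand): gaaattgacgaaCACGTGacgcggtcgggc
LYAR, -64 (GRCh38.p14, chr4:4290068-4290097, minus strand): cggcggcgagtcCACGTGctccccgcggcc
No RNA polymerase I gene with a window held the motif. ODC1, IMP4 and NOP10 had 2 sites each. LYAR was the only gene among the 18 with no site within 50 bases of a start.

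A longer stretch places the site for a pair of small-subunit genes. These are the 250 bases before the start of UTP20 (GRCh38.p14, chr12:101279855-101280104, plus strand), 47.6% of them G or C, and before the start of NAT10 (chr11:34105379-34105628, plus strand), 55.6% G or C.
UTP20: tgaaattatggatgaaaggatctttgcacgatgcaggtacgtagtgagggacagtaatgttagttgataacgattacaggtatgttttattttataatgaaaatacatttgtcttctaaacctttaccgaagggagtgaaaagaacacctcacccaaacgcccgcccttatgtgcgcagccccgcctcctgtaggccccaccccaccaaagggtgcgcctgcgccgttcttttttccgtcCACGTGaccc
NAT10: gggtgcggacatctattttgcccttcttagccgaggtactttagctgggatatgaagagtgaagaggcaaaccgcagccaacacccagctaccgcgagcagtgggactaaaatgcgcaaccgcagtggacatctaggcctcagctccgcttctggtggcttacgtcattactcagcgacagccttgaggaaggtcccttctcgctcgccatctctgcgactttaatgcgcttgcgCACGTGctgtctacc
Each holds CACGTG once, in capitals, near its right-hand end, just before the start. DDX21, NOP10 and ODC1 also held the motif within 50 bases before a start, and their longer stretches are not printed.

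Among the 39 members with a window, those with and without an E-box had like fold changes. Of the 18 with CACGTG, 13 rose, and their median log2 fold change was 0.23. Of the 21 with a window but no CACGTG, 14 rose, and their median was also 0.23. The 8 members with no window, of which 7 rose with a median of 0.44, are in neither count. Over all tested genes, 22.4% of the 1220 with the motif and 20.6% of the 8673 without it were called higher. Both members with a negative fold change, NOP10 and LYAR, hold the motif, as the printed windows show. A match of letters says nothing of binding in these cells, which was not measured.

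**Figure D2:**
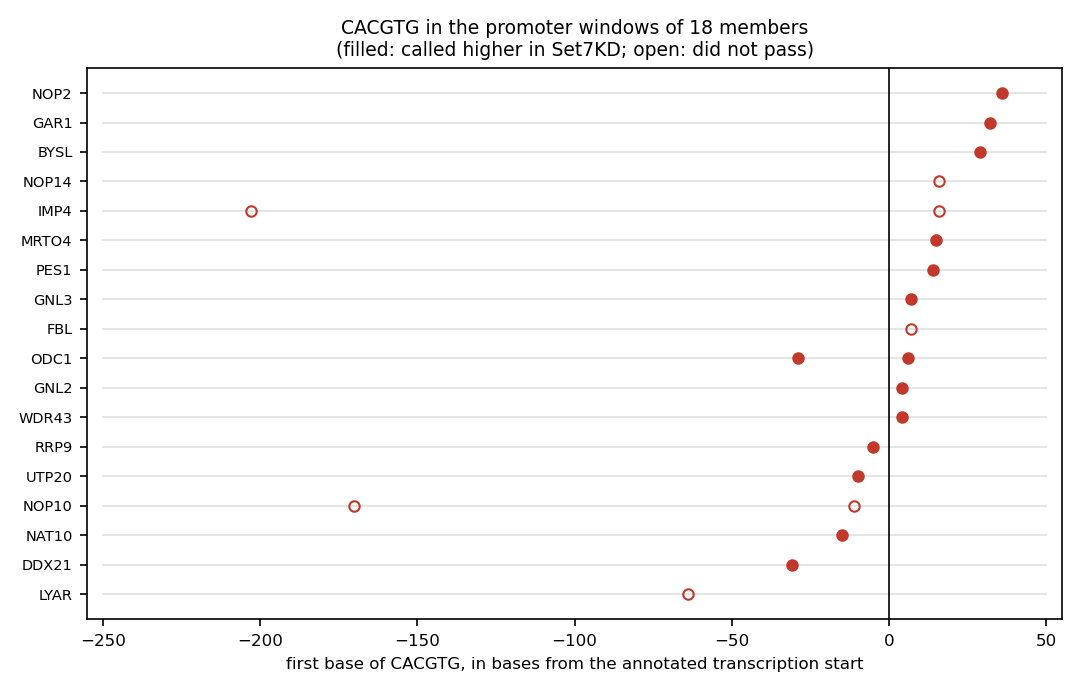
Position of CACGTG in the RefSeq promoter windows of 18 members, in bases from the annotated transcription start; filled points are members called higher in Set7KD, open points are members that did not pass. Of 21 sites, 18 lie within 50 bases of a start, and both filled and open points lie there.

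Genes of RNA polymerase I rose in 5 of 7 cases, with log2 fold changes of 0.11 to 0.48 and a median of 0.28. POLR1A, the largest catalytic subunit, had 175, 160 and 174 CPM in the Set7KD libraries, against 139, 125 and 133 CPM in the NTC libraries. All 3 Set7KD libraries lay above all 3 NTC libraries (log2 fold change 0.36 ± 0.058 SE, edgeR adjusted p = 0.000209). POLR1B, the other large subunit of the catalytic core, had 65.2, 63.5 and 68.3 CPM in the Set7KD libraries, against 47.2, 45.3 and 49.9 CPM in the NTC libraries. The groups were well apart (log2 fold change 0.47 ± 0.062 SE, edgeR adjusted p = 3.76e-05). POLR1E, a subunit of a dissociable module that aids initiation and elongation, had 49.8, 49.8 and 51.5 CPM in the Set7KD libraries, against 36.7, 34.3 and 37.0 CPM in the NTC libraries. Its lowest Set7KD library was above its highest NTC library (log2 fold change 0.48 ± 0.064 SE, edgeR adjusted p = 3.63e-05). POLR1C, a subunit shared with RNA polymerase III, rose less, with a log2 fold change of 0.28 (edgeR adjusted p = 0.00713). TCOF1, which encodes treacle, a nucleolar cofactor of rRNA gene transcription, rose by 0.25 on the log2 scale (edgeR adjusted p = 0.00374).

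The factors that load the polymerase on rRNA genes had the smallest fold changes of the role. UBTF, which binds rRNA gene promoters, had 152, 153.2 and 151 CPM in the Set7KD libraries, against 142, 145 and 128 CPM in the NTC libraries. Groups did not overlap, yet the difference did not pass (log2 fold change 0.13 ± 0.057 SE, edgeR adjusted p = 0.0804). RRN3, the initiation factor that joins polymerase to promoter, had a log2 fold change of 0.11 (edgeR adjusted p = 0.155), again with no overlap between groups. With the replicate number as a block, UBTF passed (adjusted p = 0.0275).

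Fewer of the other genes of this machinery were higher, a difference between lists that was not tested. Of 15 further RNA polymerase I subunits, promoter factors and terminators, 2 rose, 3 fell and 10 did not pass, and their median log2 fold change was -0.02. These shares, 13.3% higher and 20% lower, were near those of all tested genes (17.6% and 18.6%). POLR2H, a small subunit common to RNA polymerases I, II and III, had 20.03, 21.6 and 21.3 CPM in the Set7KD libraries, against 44.3, 42.6 and 45.2 CPM in the NTC libraries. That was less than any NTC library by a wide margin (log2 fold change -1.07 ± 0.071 SE, edgeR adjusted p = 8.57e-08). TWISTNB, the subunit that contacts RRN3, rose (0.35, edgeR adjusted p = 0.000532), as did POLR2K, another common subunit (0.30, adjusted p = 0.00308). TAF1D, a subunit of the promoter selectivity factor, fell by 0.31 on the log2 scale (edgeR adjusted p = 0.00337). The third gene that fell, POLR1D, the partner of POLR1C in the enzyme, was named after its value was seen (-0.22, adjusted p = 0.00769, and 0.0508 without Set7KD replicate 1). The replicate block gave 5 lower calls in this list in place of 3.

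Genes of snoRNPs rose in 6 of 8 cases, with a median log2 fold change of 0.30. NOLC1, the nucleolar chaperone of snoRNPs also known as Nopp140, had 264, 272 and 264 CPM in the Set7KD libraries, against 191, 189.7 and 183 CPM in the NTC libraries. This was the clearest separation among the snoRNP genes (log2 fold change 0.51 ± 0.050 SE, edgeR adjusted p = 2.14e-06). Of the box C/D core proteins, NOP58 had 129, 146 and 128 CPM in the Set7KD libraries, against 97.5, 109.5 and 101 CPM in the NTC libraries. Its groups did not overlap (log2 fold change 0.39 ± 0.064 SE, edgeR adjusted p = 0.000231). NOP56, its partner on the guide RNA, rose by 0.26 (edgeR adjusted p = 0.00165). FBL, or fibrillarin, the methyltransferase of the same particles, had 203, 198 and 196 CPM in the Set7KD libraries, against 191, 188 and 174 CPM in the NTC libraries. Its groups were apart but close, and the difference did not pass (log2 fold change 0.11 ± 0.053 SE, edgeR adjusted p = 0.117), whereas it did with the replicate block (adjusted p = 0.043).

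Among the box H/ACA core proteins 3 of 4 rose. DKC1, or dyskerin, the pseudouridine synthase, had 123, 126 and 130.4 CPM in the Set7KD libraries, against 98.7, 98.1 and 94.1 CPM in the NTC libraries. The lowest Set7KD value was far above the highest NTC value (log2 fold change 0.38 ± 0.053 SE, edgeR adjusted p = 5.5e-05). GAR1 rose by 0.34 on the log2 scale (edgeR adjusted p = 0.00272), and NHP2 by 0.24 (adjusted p = 0.0134, and 0.0537 without NTC replicate 3). NOP10, the smallest of the core proteins, had 48.0, 45.8 and 46.7 CPM in the Set7KD libraries, against 48.95, 49.9 and 47.6 CPM in the NTC libraries. Its groups overlapped and its fold change was slightly negative (log2 fold change -0.06 ± 0.061 SE, edgeR adjusted p = 0.475). Of 11 other genes of snoRNP assembly, 0 rose by edgeR, DESeq2 or limma-voom (3 were higher at an unadjusted p under 0.05, and 2 with the replicate block), and 1 fell, with a median of 0.07. The one that fell was PIH1D1, a subunit of the assembly chaperone R2TP, which had 46.8, 46.9 and 43.2 CPM in the Set7KD libraries, against 68.1, 65.4 and 60.2 CPM in the NTC libraries. No library of one group reached the other (log2 fold change -0.50 ± 0.066 SE, edgeR adjusted p = 3.62e-05). RUVBL2, an ATPase of the same chaperone, had a log2 fold change of 0.16 (edgeR adjusted p = 0.0721), and passed with the block (0.0127), without Set7KD replicate 2 (0.0479) and without NTC replicate 3 (0.0211).

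**Figure D3:**
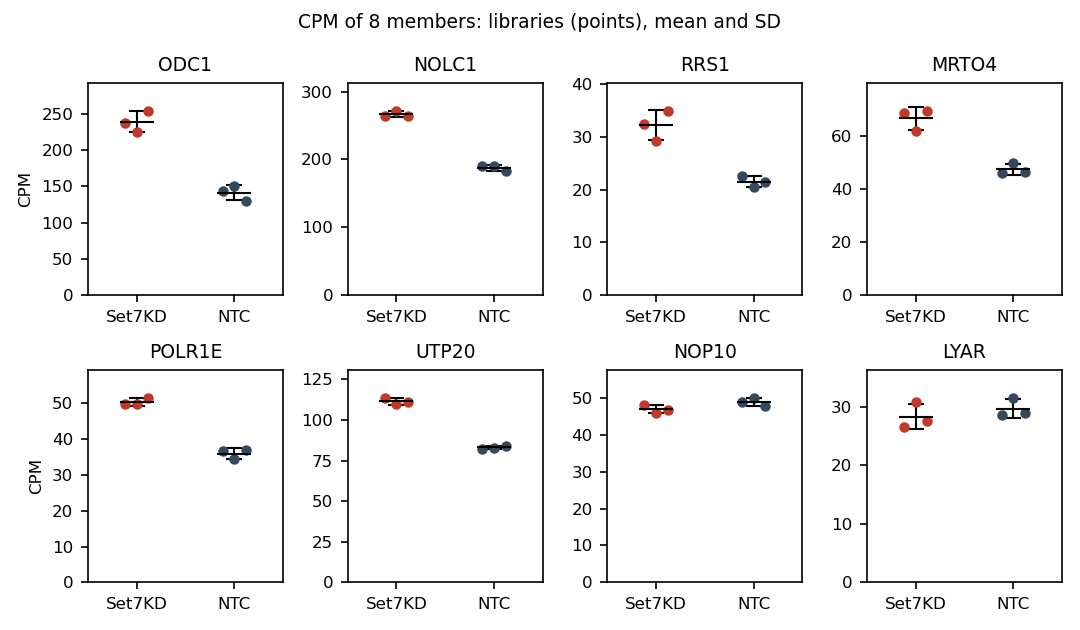
CPM of 8 members in each library, with Set7KD on the left and NTC on the right of each panel; points are libraries, and the bar and whiskers are the mean and SD of 3 libraries. ODC1, NOLC1, RRS1, MRTO4, POLR1E and UTP20 have no overlap between groups, while the groups of NOP10 and LYAR overlap.

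Genes of small-subunit processing rose in 7 of 12 cases, with a median log2 fold change of 0.20. The small-subunit processome is the large particle that assembles on the precursor rRNA as it is made. UTP20, one of its scaffold proteins, had 114, 109.6 and 111 CPM in the Set7KD libraries, against 82.3, 82.8 and 84.0 CPM in the NTC libraries. Replicates of each group lay within 4 CPM of each other, and the groups were far apart (log2 fold change 0.42 ± 0.052 SE, edgeR adjusted p = 1.81e-05). WDR43 had 113, 132 and 114 CPM in the Set7KD libraries, against 88.4, 91.6 and 83.0 CPM in the NTC libraries. Set7KD replicate 2 was the highest, and no library overlapped (log2 fold change 0.45 ± 0.066 SE, edgeR adjusted p = 9.88e-05). WDR75, which sits with WDR43 in the subcomplex that binds the precursor early, had 73.8, 79.2 and 75.2 CPM in the Set7KD libraries, against 54.9, 60.8 and 60.8 CPM in the NTC libraries. Its groups were also apart (log2 fold change 0.37 ± 0.062 SE, edgeR adjusted p = 0.000263).

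The other 4 members of this role that rose were nearer the threshold, and each lost its call when a library was left out. NAT10, which acetylates cytidines of small-subunit rRNA, had a log2 fold change of 0.18 (edgeR adjusted p = 0.0179, 0.0564 without Set7KD replicate 1 and 0.0667 without NTC replicate 2). BYSL, which acts late in small-subunit maturation, had 0.25 (adjusted p = 0.0192, 0.0967 without Set7KD replicate 3 and 0.0632 without NTC replicate 2). RRP9, a protein of the U3 snoRNP, had 0.25 (adjusted p = 0.0296, 0.131 without Set7KD replicate 3, 0.101 without NTC replicate 1 and 0.0534 without NTC replicate 2). UTP15 had 0.22 (adjusted p = 0.0316, 0.142 without Set7KD replicate 3 and 0.0529 to 0.0943 without any NTC replicate in turn). Without Set7KD replicate 3 the role held 4 calls, and without NTC replicate 2 it held 3.

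HEATR1, another processome scaffold, had 172, 162 and 162 CPM in the Set7KD libraries, against 151, 162 and 163 CPM in the NTC libraries. Its groups overlapped, with NTC replicate 3 above 2 of the Set7KD libraries (log2 fold change 0.06 ± 0.054 SE, edgeR adjusted p = 0.413). NOP14, IMP4, RRP12, a factor for export of the small subunit, and the helicase DDX10 had log2 fold changes of 0.10, 0.07, 0.05 and 0.03, and none of these passed. Among 45 further genes of this step, 26 rose, 1 fell and 18 did not pass, with a median of 0.25 that lay close to that of the listed members. PDCD11, which bridges early and later cleavages, had 131, 121 and 126 CPM in the Set7KD libraries, against 90.4, 83.8 and 92.6 CPM in the NTC libraries. All Set7KD libraries lay above all NTC libraries (log2 fold change 0.50 ± 0.058 SE, edgeR adjusted p = 1.07e-05). AATF and DCAF13 rose by 0.49 and 0.51 on the log2 scale (edgeR adjusted p = 1.12e-05 and 1.7e-05). The gene of this list that fell was NOL6, a processome subunit, with 29.9, 33.8 and 31.7 CPM in the Set7KD libraries, against 64.9, 60.3 and 58.7 CPM in the NTC libraries. No Set7KD library reached the lowest NTC library (log2 fold change -0.95 ± 0.070 SE, edgeR adjusted p = 1.62e-07).

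Of the large-subunit assembly genes, 12 of 14 rose, with a median log2 fold change of 0.24. Leaving out 1 library gave 8 to 10 calls, with the fewest, 8, without NTC replicate 1. RRS1, which helps to bring the small RNA-protein particle of the central protuberance into the large subunit, had 32.4, 29.2 and 35.0 CPM in the Set7KD libraries, against 22.5, 20.4 and 21.5 CPM in the NTC libraries. Its Set7KD libraries were all above its NTC libraries (log2 fold change 0.59 ± 0.084 SE, edgeR adjusted p = 7.67e-05). MRTO4, which holds the place of the ribosomal stalk during assembly, had 68.5, 61.6 and 69.3 CPM in the Set7KD libraries, against 46.0, 49.6 and 46.3 CPM in the NTC libraries. The groups were far apart (log2 fold change 0.49 ± 0.066 SE, edgeR adjusted p = 3.95e-05). NOP2, a methyltransferase of large-subunit rRNA, rose by 0.35 (edgeR adjusted p = 0.000211), and the helicase DDX18 by 0.40 (adjusted p = 0.000168).

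BOP1, PES1 and WDR12 form the PeBoW complex, and all 3 rose. BOP1 had 11.98, 9.77 and 11.6 CPM in the Set7KD libraries, against 7.72, 7.29 and 7.43 CPM in the NTC libraries. It was the member with the lowest counts, and its error was the largest (log2 fold change 0.57 ± 0.12 SE, edgeR adjusted p = 0.00133). WDR12 had 37.9, 39.7 and 37.5 CPM in the Set7KD libraries, against 31.6, 32.5 and 30.5 CPM in the NTC libraries. Its groups did not overlap (log2 fold change 0.28 ± 0.068 SE, edgeR adjusted p = 0.00412). PES1 had 77.6, 75.0 and 76.1 CPM in the Set7KD libraries, against 69.7, 70.0 and 65.7 CPM in the NTC libraries. The groups were apart by a narrow margin (log2 fold change 0.16 ± 0.056 SE, edgeR adjusted p = 0.0394). Its edgeR adjusted p was 0.122 without Set7KD replicate 1, 0.0712 without Set7KD replicate 3 and 0.054 to 0.118 without any NTC replicate in turn, so the call was lost in each of these.

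The nucleolar GTPases GNL3, also called nucleostemin, and GNL2 rose by 0.21 and 0.18 on the log2 scale (edgeR adjusted p = 0.0165 and 0.0154). GNL3 lost its call without Set7KD replicate 2 (adjusted p = 0.0594) or NTC replicate 1 (0.0716), and GNL2 without Set7KD replicate 3 (0.0541). The helicase DDX56 rose by 0.23 (edgeR adjusted p = 0.00673). PPAN rose by 0.25 (edgeR adjusted p = 0.022), but had an adjusted p of 0.0541 to 0.0946 without Set7KD replicates 1 or 3 or NTC replicates 1 or 3. FTSJ3, a nucleolar methyltransferase, was the weakest call (0.14, edgeR adjusted p = 0.049), which held only without Set7KD replicate 3 (0.0685 to 0.12 without each other library). NOP16 and NIP7 did not pass, with log2 fold changes of 0.12 and 0.04. Among 48 further genes of large-subunit assembly, 23 rose, 3 fell and 22 did not pass, with a median of 0.17; without NTC replicate 1, 15 rose. URB2, BCCIP and MKI67IP, a nucleolar protein that binds the proliferation antigen Ki-67, rose by 0.55, 0.41 and 0.56 (edgeR adjusted p = 2.1e-05, 2.49e-05 and 2.67e-05). GLTSCR2, a nucleolar protein also known as NOP53, had 49.7, 51.9 and 51.2 CPM in the Set7KD libraries, against 87.8, 83.2 and 84.7 CPM in the NTC libraries. It was lower in every Set7KD library than in any NTC library (log2 fold change -0.74 ± 0.057 SE, edgeR adjusted p = 2.33e-07). The other genes of the list that fell, GNL1 and EFTUD1, were named after their values were seen and fell by 0.30 and 0.23 (edgeR adjusted p = 0.000741 and 0.0119), and EFTUD1 did not pass without Set7KD replicate 1 (0.0632) or 3 (0.0623).

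**Figure D4:**
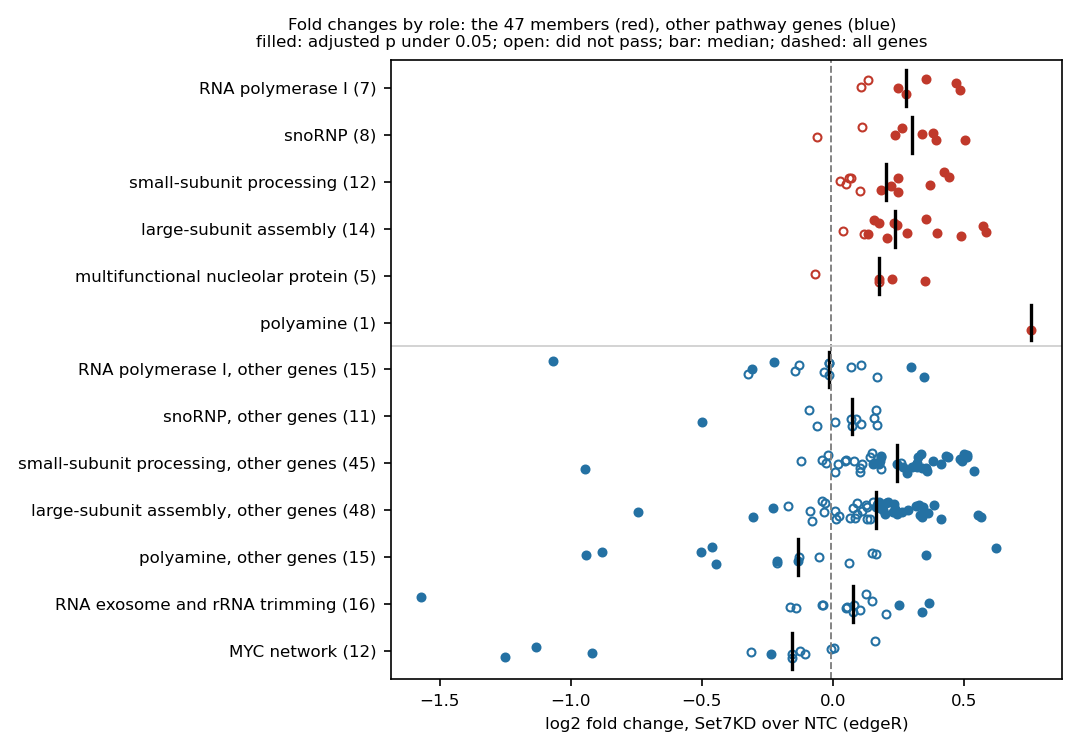
Log2 fold change of Set7KD over NTC for the 47 members by role (red) and for other genes of the same steps, the exosome and the MYC network (blue), with the number of genes in parentheses; filled points passed an edgeR adjusted p under 0.05, bars are medians and the dashed line is the median of all tested genes. Small-subunit and large-subunit genes lie mostly to the right in both colours, while POLR2H, NOL6, GLTSCR2 and EXOSC5 lie far to the left of their groups.

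The multifunctional nucleolar proteins were mixed, with 3 of 5 higher and a median log2 fold change of 0.18. DDX21, a helicase that acts on both rRNA gene transcription and rRNA processing, had 393, 403 and 391.5 CPM in the Set7KD libraries, against 314, 299 and 318 CPM in the NTC libraries. Libraries of each group were tightly placed and the groups did not overlap (log2 fold change 0.35 ± 0.050 SE, edgeR adjusted p = 7.44e-05). NCL, or nucleolin, an abundant RNA-binding protein of the nucleolus, had 1487, 1622 and 1413 CPM in the Set7KD libraries, against 1302, 1348 and 1217 CPM in the NTC libraries. The groups were apart, and Set7KD replicate 2 was the highest (log2 fold change 0.23 ± 0.063 SE, edgeR adjusted p = 0.011). NPM1, or nucleophosmin, a histone and ribosomal protein chaperone, had 165, 172 and 148 CPM in the Set7KD libraries, against 142, 137 and 149 CPM in the NTC libraries. The groups overlapped, since Set7KD replicate 3 was below NTC replicate 3 (log2 fold change 0.18 ± 0.062 SE, edgeR adjusted p = 0.037), and the call was lost without Set7KD replicates 1 or 2 or NTC replicates 1 or 2 (0.112 to 0.128). The call was also lost by DESeq2, by limma-voom and with total counts and no scaling factor. NPM3, a relative of NPM1, had a log2 fold change of 0.18 (edgeR adjusted p = 0.0694, 0.0478 with the replicate block). LYAR, a nucleolar zinc finger protein, had 26.6, 30.8 and 27.7 CPM in the Set7KD libraries, against 28.6, 31.6 and 28.96 CPM in the NTC libraries. Its groups overlapped (log2 fold change -0.07 ± 0.080 SE, edgeR adjusted p = 0.543).

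ODC1, the rate-limiting enzyme of polyamine synthesis, had the largest fold change of the 47 members. It had 238, 225 and 254 CPM in the Set7KD libraries, against 143, 151 and 129.8 CPM in the NTC libraries, with means of 239 ± 14.7 CPM in Set7KD and 141 ± 10.7 CPM in NTC (SD, n = 3 each). Every Set7KD library was above every NTC library (log2 fold change 0.76 ± 0.064 SE, edgeR adjusted p = 4.97e-07). Per replicate number the log2 ratio of Set7KD to NTC was 0.73, 0.58 and 0.97. It ranked 56 by p among the 3250 genes called higher, and 425 of the tested genes, ODC1 included, had a log2 fold change at least as high. Genes that fell by as much are not in that count.

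The other polyamine genes are given by function, a grouping made after their values were seen. Of the 4 genes of synthesis, ODC1 included, 3 rose and 0 fell. SRM, spermidine synthase, had 110.5, 96.0 and 124 CPM in the Set7KD libraries, against 74.1, 72.9 and 67.5 CPM in the NTC libraries. Its groups did not overlap (log2 fold change 0.62 ± 0.082 SE, edgeR adjusted p = 7.99e-05). AMD1, which makes the aminopropyl donor, had 103, 109 and 105 CPM in the Set7KD libraries, against 82.6, 78.9 and 85.3 CPM in the NTC libraries. It rose as well (log2 fold change 0.36 ± 0.055 SE, edgeR adjusted p = 0.000138). SMS, spermine synthase, did not pass (0.17, edgeR adjusted p = 0.112), but did without Set7KD replicate 3 (adjusted p = 0.0296).

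Of the 15 polyamine genes other than ODC1, 2 rose and 7 fell, with a median log2 fold change of -0.13. That made 13.3% higher and 46.7% lower, against 17.6% and 18.6% of all tested genes. SAT2, a relative of the acetyltransferase that starts polyamine catabolism, fell by 0.45 on the log2 scale (edgeR adjusted p = 0.000182). DHPS, which uses spermidine to make hypusine on the translation factor EIF5A, fell by 0.46 (adjusted p = 5.74e-05). The other 5 that fell are named after their values were seen. SAT1, the acetyltransferase itself, had 119.7, 146 and 100.1 CPM in the Set7KD libraries, against 247, 264 and 191 CPM in the NTC libraries. Set7KD libraries were all lower, but both groups were widely spread (log2 fold change -0.94 ± 0.20 SE, edgeR adjusted p = 0.0214), and its call was lost without Set7KD replicate 1, NTC replicate 1 or NTC replicate 2 (0.0591 to 0.0747). PAOX, a polyamine oxidase, and OAZ1, the main antizyme that targets ODC1 for degradation, fell by 0.50 and 0.13 on the log2 scale, but neither held in more than 3 of the 6 fits that left out 1 library. AZIN1, an antizyme inhibitor, fell by 0.21 (edgeR adjusted p = 0.0176, 0.125 without Set7KD replicate 1 and 0.0771 without NTC replicate 3), and ADC, the gene now named AZIN2, by 0.88 (adjusted p = 0.00867). Leaving out 1 library gave 3 to 7 lower calls among the 15, with the fewest without Set7KD replicate 1 (3) and NTC replicate 1 (4). EIF5A itself did not pass (0.15, edgeR adjusted p = 0.0666), but did with the replicate block (0.00686), without Set7KD replicate 2 (0.0178) and without NTC replicate 3 (0.0402).

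**Figure D5:**
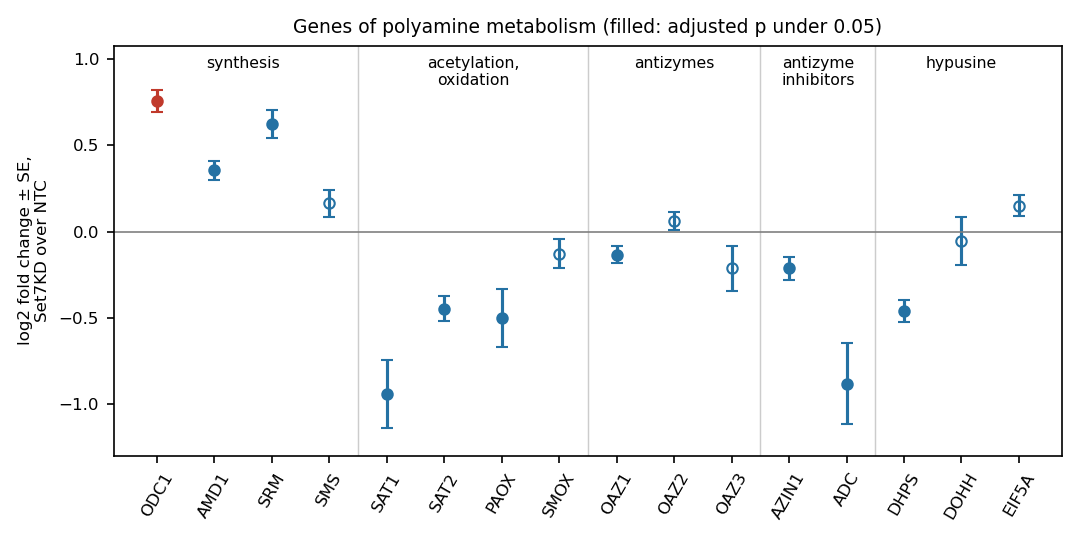
Log2 fold change of Set7KD over NTC with its SE for ODC1 (red) and 15 other genes of polyamine metabolism (blue), grouped by function; filled points passed an edgeR adjusted p under 0.05. The filled points of synthesis are above 0, and the filled points of the other 4 groups are below 0.

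The exosome, which trims precursor rRNA from its end and degrades by-products, was measured as a neighbouring step. Of 16 genes 3 rose, 1 fell and 12 did not pass, with a median log2 fold change of 0.08. That made 18.8% higher and 6.25% lower, against 17.6% and 18.6% of all tested genes. With the replicate block 5 rose, the added genes being EXOSC10 (adjusted p = 0.021) and MPHOSPH6 (0.0344), and 5 also rose with RLE scaling and with a filter of 50 counts. EXOSC5, a subunit of the exosome ring, had 4.24, 5.44 and 5.33 CPM in the Set7KD libraries, against 15.96, 14.2 and 14.4 CPM in the NTC libraries. This was the largest change among all pathway genes examined (log2 fold change -1.57 ± 0.12 SE, edgeR adjusted p = 3.13e-07). SKIV2L2, the nuclear helicase that feeds the exosome and is now named MTREX, rose by 0.37 (edgeR adjusted p = 5.1e-05), and ISG20L2 and EXOSC8 rose by 0.34 and 0.25.

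The MYC network was examined because it is known to act on many of these genes. Of its 12 genes 0 rose by edgeR, DESeq2 or limma-voom (1, MXD4, was higher at an unadjusted p under 0.05, and 1 with the replicate block), 4 fell and 8 did not pass, with a median log2 fold change of -0.16. The block gave 6 lower calls, adding MYC and MGA. MYC had 214, 228 and 167 CPM in the Set7KD libraries, against 268, 264 and 224 CPM in the NTC libraries. The groups overlapped, Set7KD replicate 3 was the lowest of all libraries, and the difference did not pass (log2 fold change -0.31 ± 0.13 SE, edgeR adjusted p = 0.108). With the replicate block MYC did pass, lower in Set7KD, with a log2 fold change of -0.32 (adjusted p = 6.1e-05). It was also called lower by DESeq2 (adjusted p = 0.0113), by limma-voom (adjusted p = 0.0293) and without NTC replicate 3 (adjusted p = 0.0387). MXI1, a repressor that competes with MYC for MAX, had 11.6, 13.5 and 12.6 CPM in the Set7KD libraries, against 28.3, 28.2 and 26.2 CPM in the NTC libraries. Its groups were far apart (log2 fold change -1.13 ± 0.090 SE, edgeR adjusted p = 3.42e-07). MLX, a MAX-like partner, fell by 0.24 (edgeR adjusted p = 0.00553). MYCN and MYCL1, the other MYC family genes, fell by 1.25 and 0.92 (edgeR adjusted p = 0.0297 and 0.0166), both from low levels. MYCN was lost without Set7KD replicates 1 or 3 or NTC replicates 1 or 2 (0.0845 to 0.106), and MYCL1 without Set7KD replicate 3 (0.0503) or NTC replicate 1 (0.0662). MAX had -0.16 (adjusted p = 0.17) and was called lower without NTC replicate 3 (adjusted p = 0.0493). Leaving out 1 library gave 2 to 7 lower calls in the network: 2 without Set7KD replicate 3 or NTC replicate 1, and 7 without NTC replicate 3. MYC protein was not measured.

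Levels between members can be compared only per length. On the scale of CPM per kilobase of merged exon (GENCODE 29, 46 members matched), NCL was highest, at 217.5 ± 15.3 in Set7KD and 186 ± 9.59 in NTC. FBL had 91.56 ± 1.78 in Set7KD and 84.77 ± 4.19 in NTC, and NOP10 had 84.54 ± 1.97 in Set7KD and 88.15 ± 2.07 in NTC (SD, n = 3 each). ODC1 stood at 80.53 ± 4.93 in Set7KD and 47.61 ± 3.61 in NTC, and DDX21 at 78.85 ± 1.26 in Set7KD and 61.86 ± 2 in NTC. FBL and NOP10, both among the highest levels, were among the members that did not pass. WDR12 was the lowest on this scale, at 4.219 ± 0.13 in Set7KD and 3.465 ± 0.109 in NTC.

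Introns of some of these genes also carry snoRNAs. In GENCODE 29 the hosts were POLR1C, NOP56, NOP58, DKC1, WDR43, GNL3, PPAN, NCL and ODC1, which make 9 members (19.1%), against 220 of 13056 tested protein-coding genes (1.69%). All 9 rose, with a median log2 fold change of 0.28, and 25 of the other 38 members rose, with a median of 0.23. Over all 220 hosts 62 (28.2%) were called higher and 52 lower, with a median of 0.04, and among the 13056 coding genes 2665 were called higher and 2887 lower. A library of polyadenylated RNA does not measure the snoRNAs themselves.

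Counting could affect some members. Exons of 18 of the 46 matched members overlap those of another gene in the table, and such values are less certain, since the use of strand in counting was not given in the sources used here. Of these 18, 11 rose, with a median log2 fold change of 0.17, and of the 28 with no such overlap 22 rose, with a median of 0.35. PES1 shares exon sequence with TCN2, which had a log2 fold change of -0.52, HEATR1 with LGALS8 (-0.29), and UTP15 with ANKRA2 (-0.33). Further partners that were lower were DNALI1 beside GNL2 (-0.87), HIGD2A beside NOP16 (-0.41) and CCDC115 beside IMP4 (-0.25). Other partners on the opposite strand were themselves higher: PSMC5 beside FTSJ3 (0.27), EMC1 beside MRTO4 (0.24) and XPO5 beside POLR1C (0.21), while YIPF3, also beside POLR1C, was lower (-0.31). The part of such overlaps in the members' values was not tested. PPAN shares it with the read-through gene PPAN-P2RY11, which had 0.21. NPM1, NCL, DDX18, PES1, NHP2 and RRN3 have pseudogene copies that are also rows of the table, and the handling of reads matching several places was not given in the sources used here.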

How the data were processed

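Poly-A RNA from 6 HMEC-1 libraries was sequenced after selection on beads, per the labels' protocols. The authors deposited raw read counts per gene as 1 table with Ensembl identifiers and symbols. BWA, bedtools and build hg19 stand in the submitters' processing notes, without versions. BWA does not splice reads, and the use of strand was not given in the sources used here. A row for reads outside genes held 55.55 to 56.14% of each library and was left out of library sizes and tests. Genes in the table summed to at least 60 counts over the 6 libraries.

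Groups and replicate numbers came from sample titles. Counts were filtered with filterByExpr, scaled by TMM and fitted with edgeR 4.0.16 (robust quasi-likelihood, Set7KD against NTC, R 4.3.3), with Benjamini-Hochberg adjustment over 18482 genes and a threshold of 0.05. The SE of a log2 fold change is its size divided by the square root of F. Within groups, libraries differed by more than sampling noise (chi-square per degree of freedom 2.98 to 9.85). In these libraries 1 count equals 0.0585 to 0.0618 CPM, which sets the precision of low genes; members had 121 to 26245 counts per library. Same-numbered libraries of the groups deviated together (r = 0.3, 0.42 and 0.34 across 11151 genes of at least 10 CPM, which are not independent replicates). Other pairs had r of -0.36 to -0.04, in part because each group was centred on its own mean. The numbers were therefore taken as possible pairs, from the data and not from the labels. The main fit did not use this pairing, and the fit with a replicate block is given beside named genes whose call it changed. Alternatives were other scalings and filters, DESeq2 1.42.0, limma-voom (limma 3.58.1), stricter thresholds and left-out libraries.

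Members, gene lists and roles were chosen with earlier results of these data known. Besides members, the plan was to name up to 4 genes with the smallest p per list, and every MYC network gene could be named. Beyond this, POLR1D, GNL1, EFTUD1 and the further polyamine genes that fell were named after their values were seen. SMS, EIF5A, EXOSC10 and MPHOSPH6, which did not pass the main test, were also named outside that limit. Exon lengths, snoRNA hosts and overlaps came from GENCODE 29 by Ensembl identifier, and promoter windows from RefSeq (GRCh38.p14) by symbol.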

Additional observations from a re-analysis of the deposited data

How the results depend on the processing

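The count of 34 members called higher was 34 with RLE or upper-quartile scaling, with no filter and with a filter of 50 counts, 33 with limma-voom, 29 with DESeq2 and 27 with total counts and no scaling factor, and 0 members were called lower in any alternative run. The median log2 fold change of the members stayed between 0.20 and 0.27. The replicate block gave 37 higher calls, gaining UBTF, FBL and NPM3 and losing no member; of the other genes named it changed only the calls of RUVBL2, EIF5A, MYC, MXD4, MGA, EXOSC10, MPHOSPH6, ERG and PCNA. It gave 29 higher calls in place of 26 among the other small-subunit genes and 25 in place of 23 among the other large-subunit genes. Calls fell to 22 at an adjusted p under 0.01 and to 10 when tested against a fold of 1.2 (4.89% of all genes were higher by that test), since both thresholds are stricter by construction. The 10 were POLR1B, POLR1E, NOLC1, DKC1, WDR43, UTP20, BOP1, RRS1, MRTO4 and ODC1. Leaving out 1 library gave 27 to 31 calls. Leaving out replicate 1 of both groups gave 18, replicate 2 gave 29 and replicate 3 gave 26, each from 2 libraries a group; the background also fell, to 7.66% without replicate 1, and the cause was not tested. Over 17 refits of the 34 called members, 17 passed in every one, 6 in all but 1, and UTP15, PES1, NPM1, FTSJ3 and RRP9 in at most 10. UTP15, PES1, NPM1, FTSJ3 and RRP9 all lost their calls with DESeq2 and with total counts, and NPM1 also with limma-voom. Signs reversed only in members near 0 that had not passed: DDX10 had a log2 fold change of -0.013 with total counts, -0.013 without NTC replicate 2 and -0.02 without replicate 2 of both groups (-0.013 to 0.09 over single left-out libraries), NIP7 had -0.003 with total counts and -0.013 without NTC replicate 3 (-0.013 to 0.111 over single left-out libraries), and HEATR1 had -0.003 without replicate 1 of both groups. With 3 libraries a group, members had an SE of 0.05 to 0.12. In the main fit the smallest log2 fold change called among them was 0.14 (FTSJ3), whereas NPM3 at 0.18 did not pass. A difference of 0.1 on the log2 scale was thus below what was called, and members that did not pass are not shown to be unchanged.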
